A study of Danio rerio with 4 samples.

Results

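Described here are the natriuretic peptide genes nppa and nppb and the calcium cycling genes ryr2b, atp2a2a, slc8a1a and casq2 in hearts of zebrafish (Danio rerio) with and without a mutation in tie1, an endothelial receptor tyrosine kinase gene. They were chosen by symbol, and the 6 symbols match 7 of the 16662 rows of the deposited table, because atp2a2a names 2 rows. Each group was 2 pools of hearts dissected at 48 hours post fertilisation (hpf), and all fish carried the endothelial reporter Tg(kdrl:eGFP). The mutant group is labelled tie1 KO, with no allele given. The control group is labelled tie1 WT, while the series' design text also names heterozygous siblings, so these pools are called siblings. Nothing in the labels says that replicates came from separate clutches, so p-values measure only the spread between these pools, which may be technical.

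Heart muscle contracts when calcium enters through L-type channels and opens ryanodine receptors, which release more calcium from the sarcoplasmic reticulum (SR). Relaxation follows as the SERCA pump returns calcium to the SR, where calsequestrin binds it, and as the sodium-calcium exchanger extrudes the rest. Natriuretic peptides are hormones secreted by heart muscle that act through guanylate cyclase receptors, and their genes are widely used in mammals as markers of cardiac wall stress.

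The gene nppa encodes atrial natriuretic peptide, and nppb encodes B-type natriuretic peptide. In GRCz11 they are neighbours on the plus strand of chromosome 8, nppb (ENSDARG00000052958) at 48609521 to 48610544 and nppa (ENSDARG00000052960) at 48613040 to 48617664, with 2495 bases between them. The gene ryr2b (ENSDARG00000003706, minus strand of chromosome 17, 20009132 to 20118244) encodes a cardiac ryanodine receptor. The gene casq2 (ENSDARG00000008982, minus strand of chromosome 9, 33097289 to 33107237) encodes cardiac calsequestrin. The gene slc8a1a (ENSDARG00000013422, minus strand of chromosome 11, 30535943 to 30612166) encodes the sodium-calcium exchanger NCX1, which in zebrafish is mutated in tremblor embryos with fibrillating hearts. Of the rows called atp2a2a, a SERCA2 gene, one (ENSDARG00000029439) lies on the plus strand of chromosome 8 at 11687254 to 11744994. The other (ENSDARG00000005122) lies on the plus strand of chromosome 21 at 17051478 to 17108649. The table's own UniProt column links the chromosome 21 row to atp2a2b, a paralog, so the rows are kept apart by chromosome, and reads could be shared between the copies.

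The values are the authors' normalised counts, rounded to whole numbers, and they depend on transcript length, so the levels of different genes are not ranked against each other as expression. The libraries had normalised totals of 2154702 to 2648465, an estimated 1770000 to 3240000 assigned reads. The tie1 values were 123 and 88 in mutants 1 and 2 against 558 and 300 in siblings 1 and 2. All 17 rows of the cardiomyocyte marker list were above 0 in every library, but so were all 27 skeletal muscle and 11 erythrocyte rows. Each library had 16276 to 16482 of the 16662 rows above 0, so this cannot check the tissue. The share of mitochondrial ribosomal RNA in the total was higher in the mutants, at 43.4% and 37.6%, than in the siblings, at 32.9% and 30.4%. In bulk RNA, fewer cells of a type and less RNA per cell cannot be told apart.

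None of the natriuretic peptide and calcium cycling genes differed between mutants and siblings past the threshold, and neither did any other gene. The value of nppb was higher in both mutant pools, nppa overlapped, and all 5 calcium cycling rows had lower mutant averages. Differences were tested with limma on log2(value + 1) over the 12118 genes whose mean was 10 or more, with Benjamini-Hochberg adjustment and a threshold of 0.05. All 7 rows entered the test and 0 passed, as did 0% of all genes. The mutated gene tie1 did not pass either, at a log2 fold change of −1.97 ± 0.31 (SE) with a limma adjusted p of 0.148. Not passing is therefore not read as no difference. At an unadjusted p under 0.05 there were 316 higher and 526 lower genes (2.61% and 4.34%) in limma, and again 0 of the 7 rows. With 2 pools a group an exact permutation test of a single gene cannot give a two-sided p below 0.333.

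The nppb value was 618 in mutant 1 and 289 in mutant 2, against 259 in sibling 1 and 255 in sibling 2. Both mutants lay above both siblings, but mutant 2 lay close to them and mutant 1 set most of the difference. The means were 454 ± 233 and 257 ± 2.83 (SD, n = 2 each). The log2 fold change was 0.72 ± 0.33 (SE), a fold of 1.64 with a 95% confidence interval of −0.03 to 1.46 on the log2 scale and an adjusted p of 0.718 in limma. Without mutant 1 the log2 fold change was 0.17, and without mutant 2 it was 1.26. The 4 libraries held an estimated 559, 217, 347 and 292 nppb reads in the order above, so counting error alone was 4.23% to 6.8% of a value. The gap between mutant 1 and mutant 2 is therefore wider than counting error.

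The nppa value was 7480 and 3477 in the mutants against 6312 and 3856 in the siblings. The mutant pools held the highest and the lowest of the 4 values. The means were 5479 ± 2831 and 5084 ± 1737 (SD, n = 2 each). The log2 fold change was 0.05 ± 0.41, with an interval of −0.87 to 0.97 and a limma adjusted p of 0.994. It was −0.50 without mutant 1, 0.60 without mutant 2 and −0.11 after quantile normalization, so no direction can be given for nppa.

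The ryr2b value was 2217 and 1496 in the mutants against 3537 and 1941 in the siblings. Sibling 1 was highest and mutant 2 lowest, and mutant 1 lay above sibling 2, so the groups overlapped. The log2 fold change was −0.52 ± 0.33, a fold of 0.695, with an interval of −1.28 to 0.23 and a limma adjusted p of 0.802. It came to −0.09 without sibling 1 and −0.96 without sibling 2.

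The casq2 value was 285 and 163 in the mutants against 358 and 245 in the siblings. Mutant 1 lay between the siblings, and mutant 2 was the lowest. The log2 fold change was −0.46 ± 0.31, a fold of 0.729, with an interval of −1.15 to 0.24 and a limma adjusted p of 0.813. It came to −0.06 without mutant 2, −0.18 without sibling 1 and −0.86 without mutant 1. This gene and the chromosome 21 row had the fewest reads, with an estimated 122 to 480 for casq2.

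For the SERCA2 row on chromosome 8, values were 994 and 779 in the mutants against 1352 and 1025 in the siblings. Both mutants lay below both siblings, with mutant 1 just under sibling 2. That gap was smaller than the counting error of this row in mutant 1, which was 3.34%. The log2 fold change was −0.42 ± 0.24, a fold of 0.748, with an interval of −0.96 to 0.12 and a limma adjusted p of 0.782. It came to −0.22 without sibling 1, −0.24 without mutant 2 and −0.62 without sibling 2. The chromosome 21 row had 164 and 156 against 154 and 212. Here sibling 2 stood above 3 close values, and the log2 fold change was −0.17 ± 0.23 with a limma adjusted p of 0.914. Without sibling 2 it was 0.05. The chromosome 21 row contributed 14.2% and 16.7% to the sum of both rows in mutant pools, against 10.2% and 17.1% in sibling pools, with no separation of the groups.

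The slc8a1a value was 2351 and 1296 in the mutants against 2639 and 1708 in the siblings. Mutant 1 lay between the siblings and mutant 2 below them. The log2 fold change was −0.28 ± 0.33, with an interval of −1.04 to 0.48 and a limma adjusted p of 0.902. It was 0.15 without mutant 2 and 0.03 without sibling 1, so no direction can be given for slc8a1a.

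**Figure D1:**
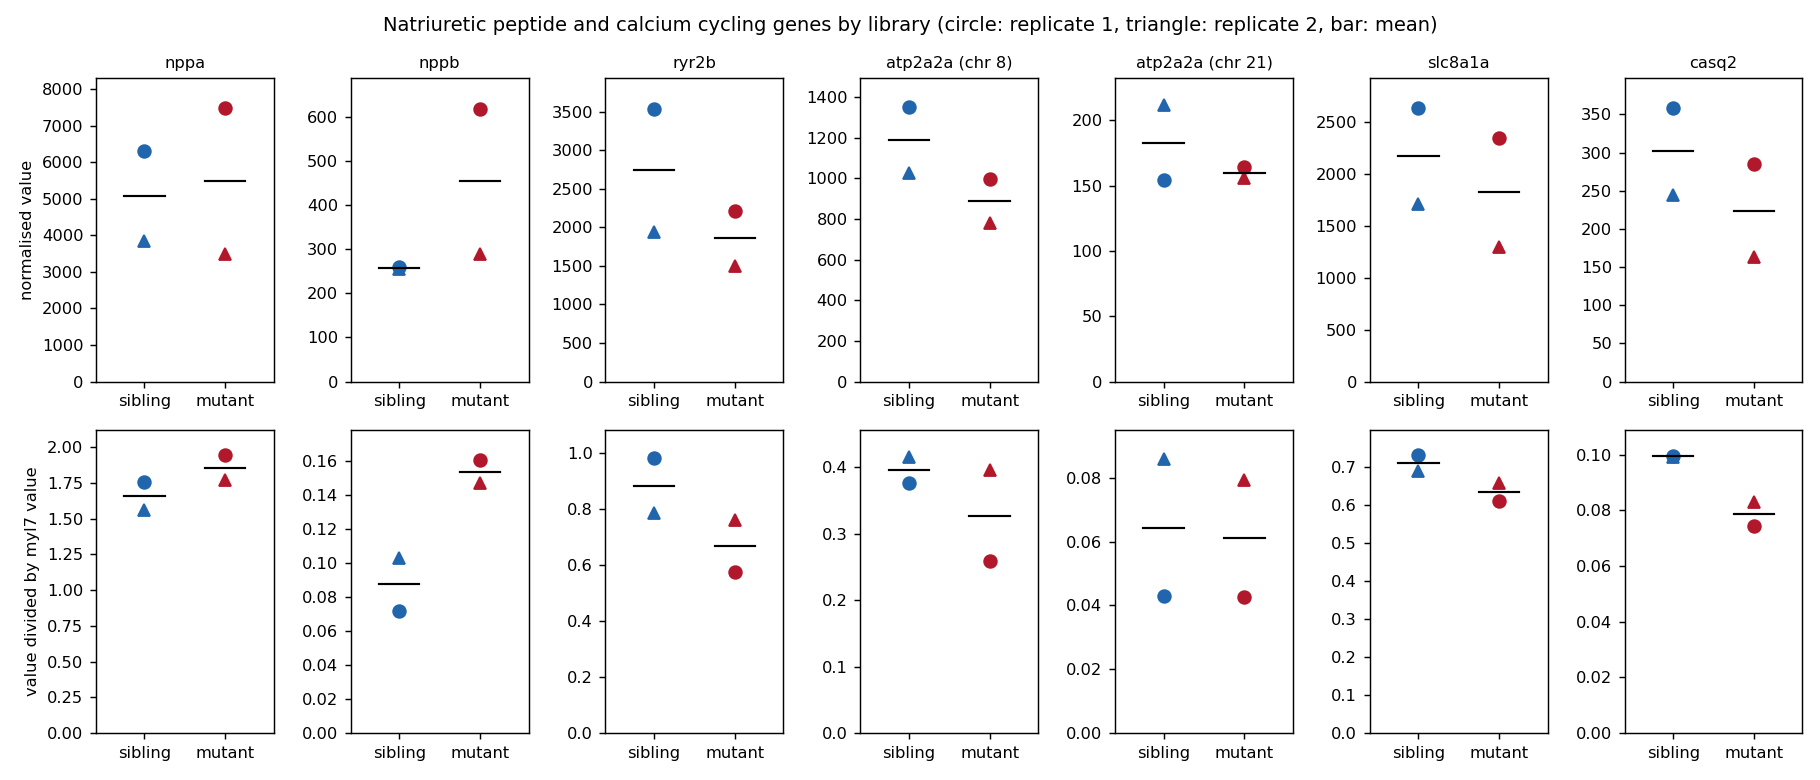
Normalised values (top) and values divided by the myl7 value of the same library (bottom) of the 7 rows, with 1 point per library and the group mean as a bar; all axes start at 0. In the top row nppb is higher and the chromosome 8 row of atp2a2a lower in both mutants, while the others overlap; in the bottom row nppa and nppb lie higher and ryr2b, slc8a1a and casq2 lower in both mutants.

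Groups that did not overlap were counted for 1 of the 7 rows with higher and 1 with lower mutant values. Over all genes tested, 15.7% were apart with higher and 18.3% with lower values, so the members' share is near that background. Of the 7 rows 2 had a log2 fold change above 0 and 5 below, with a median of −0.28, beside 49.7% and 50.3% of all genes and a median of 0.00.

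Part of the spread within groups was common to these genes and to other heart muscle genes. The replicate 1 library had the higher value in both groups for 6 of the 7 rows, all but the chromosome 21 row. The share of all genes was not counted. The same held for tnnt2a, tnni1b, cmlc1, myh6, myh7 and ttn.2. Replicate 1 also had the larger normalised total, 2648465 against 2365615 in mutants and 2413086 against 2154702 in siblings. The quotient of mutant 1 to mutant 2 was 2.15 for nppa, 2.14 for nppb, 1.81 for slc8a1a, 1.75 for casq2, 1.48 for ryr2b and 1.28 for the chromosome 8 row. For myl7, the light chain gene expressed throughout heart muscle, it was 1.95. The quotient of sibling 1 to sibling 2 was 1.64 for nppa, 1.82 for ryr2b, 1.55 for slc8a1a, 1.46 for casq2, 1.32 for the chromosome 8 row and 1.46 for myl7, but 1.02 for nppb. As planned beforehand, the values were also set against myl7, which stood at 3842 and 1966 in mutant hearts and at 3595 and 2469 in sibling hearts (log2 fold change −0.12 ± 0.35).

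Relative to myl7, both natriuretic peptide genes had higher ratios in both mutants, and ryr2b, slc8a1a and casq2 had lower ones, though none passed a test. The ratio of nppb to myl7 was 0.161 and 0.147 in the mutants against 0.072 and 0.103 in the siblings, means of 0.154 ± 0.0098 and 0.0877 ± 0.0221 (SD, n = 2 each). The mutant ratios lay close together although the values behind them differed 2.14-fold. The ratio of nppa to myl7 was 1.95 and 1.77 against 1.76 and 1.56. The gap between mutant 2 and sibling 1 was smaller than the counting error of nppa in mutant 2, which was 1.96%, so the separation of nppa rests on less than counting error.

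The ratio of casq2 to myl7 was 0.0742 and 0.0829 in the mutants, against 0.0996 and 0.0992 for the sibling pools. The siblings lay together and both mutants below, with means of 0.0785 ± 0.0062 and 0.0994 ± 0.00025 (SD, n = 2 each), while the counting error of casq2 in 1 library was 4.56% to 9.05%. The ratio of ryr2b to myl7 was 0.577 and 0.761 against 0.984 and 0.786. Mutant 2 lay just under sibling 2. The ratio of slc8a1a to myl7 was 0.612 and 0.659 against 0.734 and 0.692, a small separation in the same direction.

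Ratios overlapped for both SERCA2 rows. That of the chromosome 8 row was 0.259 and 0.396 in the mutants against 0.376 and 0.415 in the siblings, where mutant 1 alone was low. That of the chromosome 21 row was 0.0427 and 0.0793 against 0.0428 and 0.0859, so it differed between the replicates and hardly between the groups.

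When the log2 values of all genes were taken relative to myl7 and fitted with limma, the log2 fold change was 0.83 ± 0.68 for nppb, 0.16 ± 0.54 for nppa, −0.41 ± 0.59 for ryr2b, −0.34 ± 0.69 for casq2 and −0.17 ± 0.59 for slc8a1a. It was −0.30 ± 0.63 for the chromosome 8 row and −0.06 ± 0.70 for the chromosome 21 row. Their limma adjusted p was 1 each. Of 12117 genes, 1 passed (0.00825%), the fast myosin gene myhz1.3. Its values were 2 and 171 in the mutants against 415 and 495 in the siblings. Its SE was 0.71 relative to myl7, but 1.41 without the division, where its limma adjusted p was 0.577. Relative to myl7, limma gave 73 higher and 61 lower genes at an unadjusted p under 0.05 (0.602% and 0.503%), and 0 of the 7 rows. In that fit the spread of myl7 between pools enters every gene, with a median SE of 0.72 against 0.32 without the division, and limma set the spread of each gene from the trend over mean levels and not from its own ratios. The SEs of these genes are therefore wider than their own ratios give, though only slightly for the chromosome 21 row. Leaving out 1 library moved several of these values by over 1.5 times. The ryr2b value was −0.21 without mutant 1 and −0.25 without sibling 1, and that of nppa was 0.09 without mutant 1, 0.25 without sibling 1 and 0.08 without sibling 2. The chromosome 8 row came to 0.0044 without mutant 1 and −0.61 without mutant 2. The chromosome 21 row ran from −0.56 without sibling 1 to 0.44 without sibling 2.

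**Figure D2:**
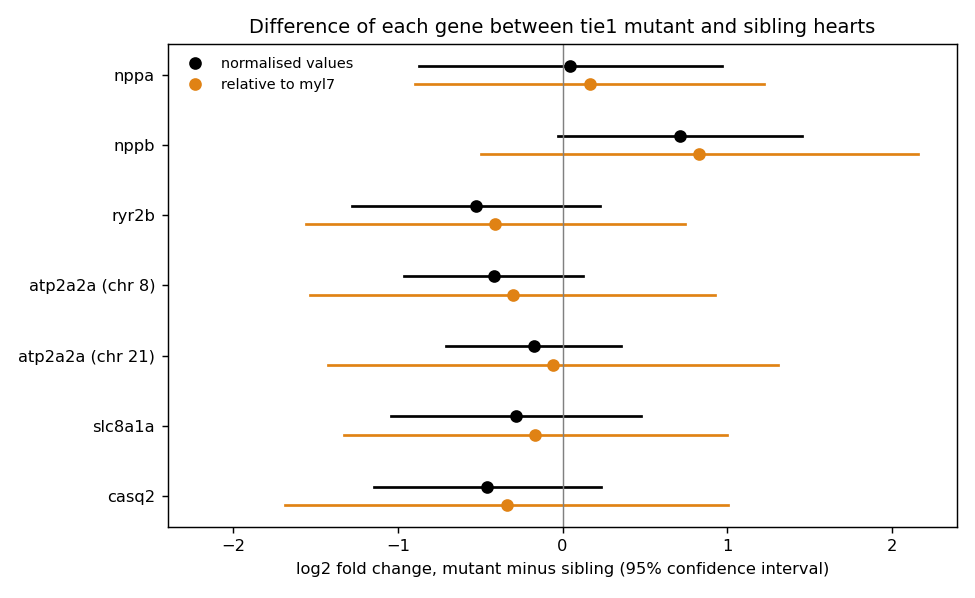
Log2 fold changes of mutants against siblings with 95% confidence intervals from limma (2 libraries a group), from normalised values (black) and relative to myl7 (orange). All intervals include 0, and the lower bound for nppb from normalised values, −0.03, is the nearest to it.

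Relative to myl7, 2 of the 7 rows were apart with higher ratios, where 7.90% of all genes were, and 3 of the 7 with lower ratios, where 6.54% were. Of all genes, 62.3% had a log2 fold change above 0 and 37.7% below in this fit, with a median of 0.11, beside 2 and 5 of the 7 rows. The shares apart are above the background, on 7 rows from the same 4 libraries, but this comparison is uneven. Without the division, 15.7% of all genes were apart with higher and 18.3% with lower values. The division brings the replicate spread of myl7 into every gene. In 6 of the 7 rows, as in myl7, replicate 1 had the higher value in both groups, though by differing quotients. How many of all genes do so was not counted, and the part of this in the excess was not tested. The excess is not read as a result about these genes in particular. The separation of nppa was within counting error. Those of ryr2b and slc8a1a were narrow between mutant 2 and sibling 2. For ryr2b the ratios there were 0.761 and 0.786, with counting errors of ryr2b of 2.99% and 2.12%. For slc8a1a they were 0.659 and 0.692, with 3.21% and 2.26%, and the counting error of myl7 adds to both. Of the 16 other rows in the cardiomyocyte marker list, 0 were apart with higher and 6 with lower ratios.

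The ratios were formed with other references too. Among 5 references from heart muscle, namely myl7, the troponin genes tnnt2a and tnni1b, the light chain gene cmlc1 and the atrial myosin gene myh6, the nppb ratio was 1.76 to 2.04 times as high in mutants and the groups were apart for 5 of 5. The ryr2b ratio was 0.753 to 0.861 times that of siblings and apart for 5 of 5, and casq2 at 0.79 to 0.907 was too. For ryr2b the separation was narrow, since with myh6 as reference mutant 2 stood at 0.1606 and sibling 2 at 0.1609, a gap below the counting error of ryr2b in mutant 2, which was 2.99%. For nppa the ratio was 1.12 to 1.3 times as high but apart for 2 of 5. For the chromosome 8 row it was 0.828 to 0.935 and apart for 3 of 5, and for slc8a1a it was 0.891 to 1.03 and apart for 2 of 5. The upper end of each range came from myh6. Relative to myh6 the median log2 fold change of all genes was 0.31, beside 0.11 relative to myl7. Relative to myl7, 7.90% of all genes were apart with higher and 6.54% with lower ratios, and these shares were not counted for the other references. These 5 references are themselves heart muscle genes measured in the same 4 libraries, so they are not separate evidence. They were set side by side after the values were seen. The references myl7, cmlc1 and myh6 stood at log2 fold changes of −0.12, −0.16 and −0.32. The cardiomyocyte marker list had a median of −0.46, near the −0.46 of casq2 and the −0.52 of ryr2b. Listed genes such as actn2b, at −0.61, and mybpc3, at −0.80, were lower, and ratios to them were not formed. The 5 of 5 for ryr2b and casq2 is therefore a statement about these references only.

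Against myh7, the ventricular myosin heavy chain gene also known as vmhc, every row had a higher ratio in both mutants, a direction that the lower myh7 values gave to most genes. Relative to myh7 the median log2 fold change of all genes was 1.43, and 6794 genes were higher and 3 lower at an unadjusted p under 0.05 in limma. The myh7 values were 13077 and 7093 in the mutants against 31906 and 21256 in the siblings. The nppb to myh7 ratio was 0.0473 and 0.0407 against 0.00812 and 0.0120, which is 4.38 times as high in the mutants. The nppa ratio was 2.80 times as high, and the calcium cycling rows were 1.88 times (ryr2b) to 2.33 times as high (chromosome 21 row). Nothing about these genes in particular can be read from this reference.

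**Figure D3:**
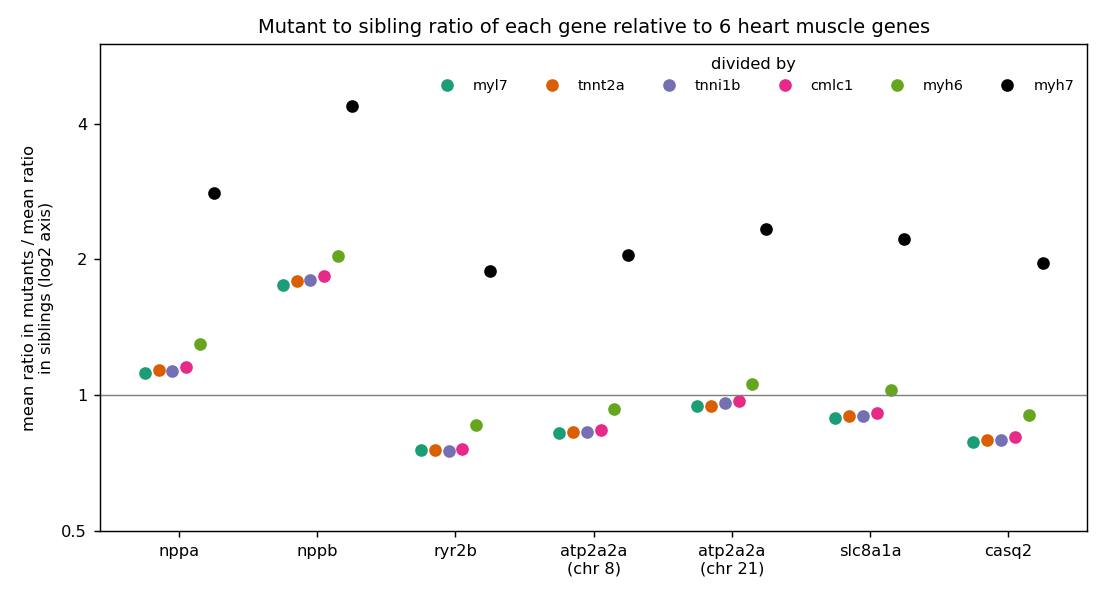
Mean within-library ratio in mutants divided by that in siblings (log2 axis) for each of the 7 rows, with 1 point per reference gene. Points for myl7, tnnt2a, tnni1b and cmlc1 lie close together, those for myh6 slightly above and those for myh7 from 1.88 to 4.38.

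Between the natriuretic peptide genes, the ratio of nppb to nppa was 0.0826 and 0.0831 in mutant pools, against 0.0410 and 0.0661 in sibling pools. The mutant ratios were nearly equal, and the sibling ratios were lower and apart from each other. The mean ratio was 1.55 times as high in the mutants, with no test of its own beyond the smallest exact permutation p of 0.333. Among the 5 calcium cycling rows, 10 ratios can be formed, and the groups were apart in 1 of them. That was casq2 to slc8a1a, with 0.121 and 0.126 in mutant pools and 0.136 and 0.143 in sibling pools, differences of the order of the counting error of casq2. Random labels on 2 pools against 2 would set a single ratio apart, in either direction, with a probability of 0.333. The 10 ratios also share their 5 rows, so 1 of 10 is not read as a result. The other ratios overlapped, such as casq2 to ryr2b, which was 0.129 and 0.109 against 0.101 and 0.126, and the chromosome 8 row to ryr2b, which was 0.448 and 0.521 against 0.382 and 0.528.

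The likeness of profiles was measured as the root mean square distance of centred log2 values over the 4 libraries, where 0 means the same profile. Among the 7 rows, slc8a1a and casq2 were closest at 0.09, followed by ryr2b and casq2 at 0.14, and nppb and ryr2b were farthest apart at 0.71. The pair of neighbours nppa and nppb stood at 0.41. With candidates limited to a mean value of 100 or more, the nearest to nppa were filip1b at 0.06, mylk3, the gene of a cardiac myosin light chain kinase, at 0.07, and b2ml. The nearest to nppb were nrp2b, a neuropilin co-receptor gene, at 0.09, rrad, the gene of a small GTPase that restrains L-type calcium channels in mammals, at 0.17, and CABZ01072077.1. The rrad values were 448 and 200 in the mutants against 195 and 142 in the siblings.

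The nearest to ryr2b were sgcg, the gene of gamma-sarcoglycan in the muscle membrane complex, at 0.03, zgc:56235 and usp13. For casq2 they were fstl1b at 0.04, add3a and chrm2a, a muscarinic acetylcholine receptor gene. For slc8a1a they were pla1a at 0.03, snap29 and rcan1a, a regulator of the phosphatase calcineurin. For the chromosome 8 row they were cap2, epha7 and prkacbb, the gene of a catalytic subunit of protein kinase A, all at 0.03. For the chromosome 21 row they were lasp1 at 0.01, wdr33 and xpo1a. With only 4 libraries, close profiles can be found for many genes.

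Around the natriuretic peptides, 10 other genes of the hormone system were tested, of which 6 were higher and 4 lower, and their log2 fold changes had a median of 0.22 beside 0.00 for all genes. None passed in limma. The receptor genes had few reads: npr1a, a guanylate cyclase receptor gene, had 48 and 47 against 43 and 24, and npr3, the gene of the clearance receptor, 75 and 55 against 53 and 49. Both were higher in both mutants, as were 15.7% of all genes, with log2 fold changes of 0.55 ± 0.34 and 0.33 ± 0.27. They were chosen after their values were seen, as were npr1b, with 19 and 4 against 22 and 16, and npr2, with 85 and 81 against 101 and 58. The 2 genes with the smallest p, picked here for that reason, were pde5ab and prkg1a. The phosphodiesterase gene pde5ab had 20 and 19 against 6 and 6, on few reads. Its mean of 12.75 passed the filter of 10 only through the mutants, with group means of 19.5 and 6. Its difference is therefore partly built into the selection. It came to 1.55 ± 0.49 on the log2 scale with a limma adjusted p of 0.550. The gene prkg1a, of a cyclic GMP-dependent protein kinase, had 34 and 28 against 19 and 14, at 0.88 ± 0.36 with a limma adjusted p of 0.709. The convertase genes were lower on average, with furina at 276 and 288 against 385 and 306 and corin, which activates atrial natriuretic peptide in mammals, at 144 and 108 against 209 and 129.

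Of 16 other genes of SR calcium release, 7 were higher and 9 lower, with a median of −0.10, and none passed. The highest mean value, which also depends on transcript length, belonged to trdn, the gene of triadin, which anchors calsequestrin at the release channel, with 1086 and 628 against 982 and 560, or 0.16 ± 0.33 on the log2 scale. The ratio of trdn to casq2, picked with its values known, was 3.81 and 3.85 in the mutants against 2.74 and 2.29 in the siblings. The junctional gene asph stood at 0.01 ± 0.27. The genes with the smallest p were tmem38a, the gene of an SR potassium channel, with 25 and 35 against 50 and 45 and −0.66 ± 0.30, and srl, the gene of the SR calcium-binding protein sarcalumenin, with 165 and 140 against 248 and 179 and −0.47 ± 0.24. In both, picked here for their small p, both mutants lay below both siblings, as in 18.3% of all genes.

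For SR calcium uptake 5 other genes were tested, 2 higher and 3 lower, with a median of −0.18. The gene atp2a1 encodes the SERCA pump of fast skeletal muscle and had 29 and 137 against 119 and 257, at −1.45 ± 0.63 with a limma adjusted p of 0.713. Skeletal muscle markers, a list that also holds atp2a1, moved with it: 15 of its 22 tested rows were apart with lower mutant values and 1 with higher ones, beside 18.3% and 15.7% of all genes, and the list summed to 2059 and 2670 in the mutants against 4292 and 4352 in the siblings. Within the list, myhz1.2, the gene with the smallest p, had 8 and 8 against 59 and 58, while myhz2 had 10 and 119 against 135 and 120. The gene myhz1.2 passed the filter of 10 only through the siblings, with a mean of 58.5 against 8 in the mutants. The part of skeletal muscle RNA in the SERCA values was not tested. The pump gene atp2a3 stood at −0.26 ± 0.26 and hax1, an apoptosis regulator gene, at 0.56 ± 0.43.

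Among genes of calcium transport across the cell membrane, 8 of 16 others were higher and 8 lower, with a median of −0.01. The sodium pump genes atp1a1a.1 and atp1b1a, which keep the sodium gradient that drives the exchanger, stood at −0.29 ± 0.23 and −0.20 ± 0.26. The exchanger paralog slc8a1b had 15 and 32 against 8 and 14, at 0.98 ± 0.51, on few reads. The sodium pump gene atp1a3a, known from neurons, had 58 and 13 against 13 and 4, at 1.78 ± 0.74. Neuronal markers summed to 401 and 203 in the mutants against 283 and 68 in the siblings, and their part in this value was not tested. The L-type channel gene cacna1c, chosen after its values were seen, had 342 and 257 against 359 and 226, at 0.06 ± 0.27.

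Of 36 genes of calcium sensing and regulation, 14 were higher and 22 lower, with a median of −0.15. The cardiac troponin C gene tnnc1a had 2292 and 1275 against 2412 and 1501, at −0.15 ± 0.34, and the chaperone gene canx stood at −0.04 ± 0.20. The phosphodiesterase gene pde3a, at 0.54 ± 0.26, and prkacbb, at −0.44 ± 0.22, had the smallest p.

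Of 8 genes of mitochondrial calcium uptake 7 were lower, with a median of −0.35. The uniporter gene mcu had 22 and 23 against 42 and 47, at −0.95 ± 0.30 with a limma adjusted p of 0.549. Its regulator micu2 had 64 and 55 against 101 and 79, at −0.58 ± 0.26. The outer membrane channel genes vdac2, with 410 and 432 against 570 and 580, and vdac3, with 377 and 329 against 503 and 424, stood at −0.45 ± 0.20 and −0.39 ± 0.21. Both mutants lay below both siblings in 6 of these 8 genes, beside 18.3% of all genes, and none passed in limma. Relative to myl7, 7 of the 8 were still lower. There 1 was apart with lower and 1 with higher ratios, beside 6.54% and 7.90% of all genes. Markers of other cell types were lower as well: all 11 erythrocyte rows were lower and apart, with sums of 5277 and 4926 against 13627 and 11760 and a median of −1.40. Of 12 endothelial and endocardial genes 11 were lower and 7 apart with lower values, beside 18.3% of all genes. Their sums were 3675 and 2333 against 5899 and 3707. The mutated gene tie1 is in this list and enters both counts and the sums. No listed marker of these 2 lists was at 0 in any library, and their part in the values of the calcium genes was not tested.

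Over the 6 lists without the genes described in full, 91 genes were tested, 38 higher and 53 lower, with a median of −0.12. Of these, 12 were apart with higher and 24 with lower mutant values, beside 15.7% and 18.3% of all genes. In limma 0 passed, with 3 higher and 4 lower at an unadjusted p under 0.05, beside 2.61% and 4.34% of all genes. Among the 3 higher were pde5ab and atp1a3a, which passed the filter on the mean only through the mutants. Relative to myl7, 45 of the 91 were above 0 and 46 below, beside 62.3% and 37.7% of all genes. There 12 were apart with higher and 7 with lower ratios, beside 7.90% and 6.54% of all genes. From normalised values, the cardiomyocyte marker list had 1 of 17 higher and 16 lower with a median of −0.46. The median of the 7 described rows, −0.28, lay between these. In the cardiomyocyte list 7 of 17 rows were apart with lower and 0 with higher values, beside 18.3% and 15.7% of all genes. Its sums were 90891 and 57756 in the mutants against 155125 and 94843 in the siblings, with the highest means in ttn.2 and myh7l. The part of this in the values of the calcium genes was not tested.

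**Figure D4:**
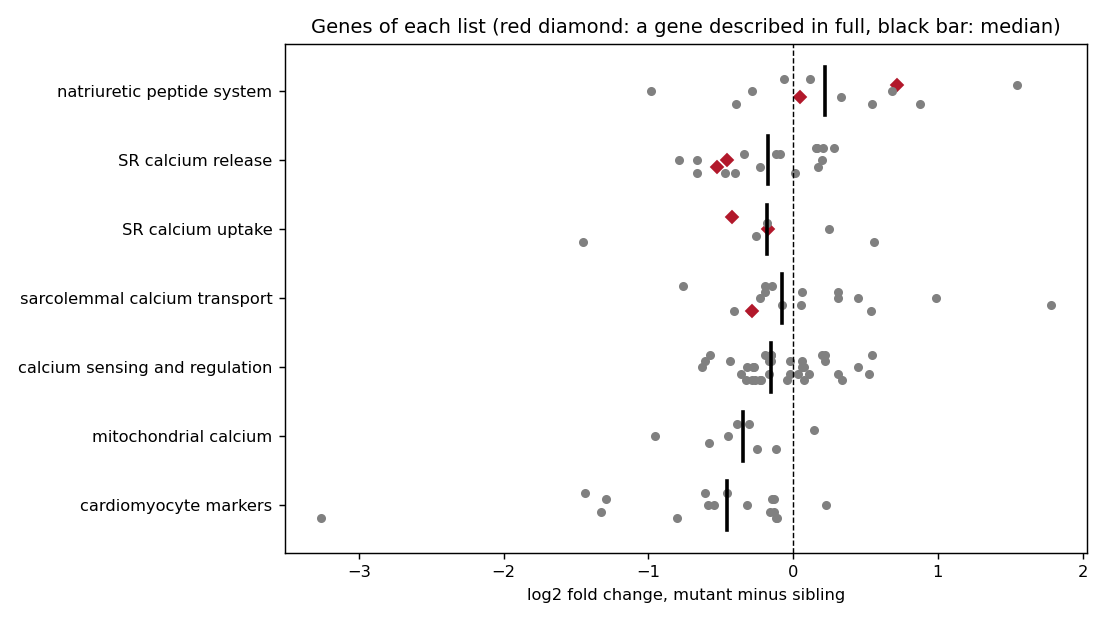
Log2 fold changes of the tested genes of each list, with 1 point per gene, the genes described in full as red diamonds, the list median as a black bar and the median of all genes as a dashed line. The natriuretic peptide system has a median of 0.22, mitochondrial calcium −0.35 and the cardiomyocyte markers −0.46.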

How the data were processed

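RNA was measured in 4 libraries, each made from 2 ng of total RNA with the SMARTer Stranded kit in its Pico version, per the labels' protocols. Genome build GRCz11 and the tools featureCounts 1.4.5-p1, STAR 2.4.0a, Subread and FastQC are named, without roles, in the submitters' processing notes. The deposited values are normalised counts that the authors rounded to whole numbers, so they were treated as a score and not as reads. Neither labels nor header give the normalization method. Reads were estimated from the spacing of low values in each library, and counting errors rest on them alone.

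Values were tested with limma 3.58.1 in R 4.3.3 as log2(value + 1), which understates changes of low genes, for genes with a mean of at least 10, with a mean-variance trend. A second fit subtracted the log2 value of myl7 in each library. The fits were checked on simulated data in which myl7 was the same in every library. The spread that myl7 brings to the second fit was therefore not checked. Adjusted p are Benjamini-Hochberg over all genes, errors are SE unless SD is named, and intervals are 95%.

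The genes described in full and the lists were chosen with earlier results of these data known. The rule names the 2 genes with the highest mean and the 2 with the smallest p of each list. It is followed for the 6 pathway lists, with other genes marked as chosen later, while marker lists are given mainly as counts and sums. For each gene described in full, the 3 nearest profiles are named. Symbols without a row were not analysed here. Alternatives were other pseudocounts, filters, scalings, moderation, references, the replicate block and leaving out each library.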

Additional observations from a re-analysis of the deposited data

How the results depend on the processing

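Across 210 values of the 7 rows under the alternatives, 192 kept their direction and their side of the threshold, 17 reversed and 1 newly passed. Counts of genes past the threshold, 0 from normalised values, were 13 with a mean of at least 50, 16 with robust moderation and 5 after scaling to the total without mitochondrial ribosomal RNA, and 0 without each library in turn. Relative to myl7 the count of 1 became 2 with a pseudocount of 0.5, 0 with a pseudocount of 10, 2 with no filter, 7 without the trend, 0 with robust moderation, 5 relative to tnnt2a, 5 relative to myh6 and 3 relative to the geometric mean of myl7, tnnt2a, myh6 and ttn.2. It ranged from 0 to 29 without 1 library. Chosen after seeing the data, the geometric mean of myl7, tnnt2a, tnni1b and cmlc1 gave 5 and myh7 gave 290, with the median of all genes moved to 1.43. There nppb passed at 2.15 (limma adjusted p = 0.0429), and the reversed log2 values were 0.91 for ryr2b, 1.02 and 1.26 for the chromosome 8 and 21 rows of atp2a2a, 1.15 for slc8a1a and 0.98 for casq2.

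There were other reversals. From normalised values, nppa turned to −0.50 without mutant 1, −0.31 without sibling 2 and −0.11 after quantile normalization, slc8a1a to 0.15 without mutant 2 and 0.03 without sibling 1, and the chromosome 21 row to 0.054 without sibling 2. Without 1 library, nppa ranged from −0.50 to 0.60, slc8a1a from −0.71 to 0.15 and the chromosome 21 row from −0.40 to 0.054. Relative to references, the chromosome 8 row turned to 0.0044 without mutant 1. The chromosome 21 row turned to 0.39 without mutant 1, 0.44 without sibling 2, 0.14 relative to myh6 and 0.10 relative to the geometric mean with ttn.2, and slc8a1a to 0.034 relative to myh6. Relative to myl7 and without 1 library, nppb ranged from 0.57 to 1.09, nppa from 0.08 to 0.25, ryr2b from −0.61 to −0.21, casq2 from −0.42 to −0.26, slc8a1a from −0.22 to −0.11, the chromosome 8 row from −0.61 to 0.0044 and the chromosome 21 row from −0.56 to 0.44. The cause was not tested.

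The replicate block called 95 genes from normalised values and 111 relative to myl7, and none of the 7 rows. Its limma adjusted p was 0.261 for nppb, 0.151 for ryr2b and 0.274 for the chromosome 8 row. Its unadjusted p was under 0.05 for 4 of the 7 rows from normalised values, 0.0034 for ryr2b, 0.011 for nppb, 0.0128 for the chromosome 8 row and 0.0258 for casq2, beside 11.4% of all genes under the block and 6.95% without it. Relative to myl7 it was under 0.05 under the block for 1 of the 7 rows, nppb at 0.0139, beside 6.97% of all genes. Without the block, nppb alone of the 7 rows had an unadjusted limma p under 0.05 from normalised values. Among fits of all 4 libraries it was 0.0488 with a mean of at least 50, 0.043 with robust moderation, 0.0367 quantile-normalised and 0.0282 without mitochondrial ribosomal RNA. Of all genes 6.64% to 8.08% did there, and 3.04% relative to myh6 (nppb 0.0439). Relative to myh7, nppa, nppb and slc8a1a did, beside 56.1% of all genes. Same-numbered libraries deviated together at a correlation of 0.198 over 12118 genes and 0.376 over 17 cardiomyocyte markers. With 2 pairs and no label behind the numbers, it cannot be told whether they share more than a number. A fit without 1 library leaves a group with 1 pool, which is assumed to vary like the other group. Counting error of casq2, nppb and the chromosome 21 row reached 9.05%, 6.8% and 9.25%.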
